A study of Homo sapiens with 12 samples.

Results

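POFUT1, DGCR8 and XRN1 stand at 3 points in the life of a microRNA: the gene that carries its hairpin, a protein that processes hairpins, and a nuclease that removes the messages it silences. They were taken by gene symbol from the annotated rows of the array table, as 3 of 14884 named genes, and each had 1 transcript cluster (the array's unit that gathers the probes of a gene). POFUT1 was chosen as the host gene of miR-1825, DGCR8 for microRNA processing and XRN1 for mRNA decay. The cells were HEK293, an adenovirus-transformed human embryonic kidney line grown in culture. The mimic-1825 group (6 arrays) had received Syn-hsa-miR-1825, a synthetic miR-1825 mimic. The control group (6 arrays) had received AllStars Negative Control siRNA, so that both groups carried a small duplex RNA, delivered with HiPerfect, and no untransfected cells were included. Both RNAs were used at 5 nM and total RNA was taken 24 h later. Whether the 6 arrays of a group stand for separate cultures is not in the labels. Each p-value is therefore set against the spread between arrays alone, and that spread may be technical.

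A microRNA is cut from a folded hairpin in its primary transcript by the Microprocessor, in which DGCR8 grips the hairpin and DROSHA cuts it. DICER1 then trims the exported hairpin, and an Argonaute protein uses one strand to find messages, mainly through the seed at its 5′ end. Bound messages lose their poly(A) tail and then their cap, and XRN1 digests the decapped RNA from the 5′ end in the cytoplasm. A transfected mimic enters at the Argonaute step and does not pass through the Microprocessor. POFUT1 has a different role: it is the endoplasmic reticulum enzyme that attaches O-fucose to EGF-like repeats, of which those of the Notch receptors are the best known.

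The sequences below show why POFUT1 is named with miR-1825. In RefSeq (GRCh38.p14) the hairpin lies at chr20:32237795-32237847 on the plus strand, inside the span of POFUT1 (chr20:32207880-32238658, plus strand) and 811 bases before that gene's end. Exon structure was not used here, so it is not stated whether the hairpin is intronic or exonic. In the hairpin the capitals mark the mature microRNA, and in the mature sequences they mark the seed (bases 2 to 8), except in miR-199a-5p, where they mark bases 2 to 7.
hsa-mir-1825 hairpin: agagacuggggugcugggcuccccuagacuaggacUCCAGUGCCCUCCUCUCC
hsa-miR-1825: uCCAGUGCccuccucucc
hsa-miR-199a-5p: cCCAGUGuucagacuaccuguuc
The mature miR-1825 is 18 bases long and ends the hairpin on its 3′ side. Among the 2370 mature human microRNA names in the list searched, 0 others had the same bases 2 to 8. In that list 1 other, hsa-miR-199a-5p, shared bases 2 to 7. Names missing from the list were not searched, so further human microRNAs may share these bases.

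DGCR8 is itself a microRNA host. RefSeq places it at chr22:20080241-20111872 on the plus strand, and 2 hairpin genes, MIR3618 and MIR1306, start 5505 and 5817 bases after its start on the same strand. Their mature sequences, with the seed in capitals, are shown because none of them shares the seed of miR-1825.
hsa-miR-3618: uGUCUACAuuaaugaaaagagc
hsa-miR-1306-5p: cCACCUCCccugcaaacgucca
hsa-miR-1306-3p: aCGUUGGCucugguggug
XRN1 lies at chr3:142306610-142448037 on the minus strand. MIR1825, MIR3618 and MIR1306 were not among the named rows of the array and were not analysed here.

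Over 53617 transcript clusters, 6 passed a limma test at an adjusted p under 0.05 (percent called 0.0112), and 0 of the 14884 named genes did, against 1618 (10.9%) at an unadjusted p under 0.05. The count of 6 was 0 when any single one of 8 of the 12 arrays was left out. It was 242 when only the brightest 25% of clusters were tested, and 39 under limma's robust, intensity-trended prior. Any 2 arrays correlated at 0.988 to 0.9939 over all clusters. The array medians ran from 4.46 to 4.51 in controls and from 4.44 to 4.501 after the mimic. The upper quartiles ran from 6.28 to 6.31 and from 6.31 to 6.32, and were higher after the mimic (difference 0.018, exact permutation p = 0.00649). Of 8 HEK293 markers fixed for the label, 5 were named: IGF2BP1, LIN28B and VIM had means of 11.53, 9.99 and 8.05, and PAX2 and SALL4 of 5.60 and 5.22. NEFM, NEFL and CDH2 were not analysed here. Of 7 leukocyte markers 3 were named, with LYZ at 3.02 and CD14 at 3.86, below every array median, and CD68 at 6.27. Of 7 fibroblast markers 3 were named, with DCN at 2.67, THY1 at 5.27 and LUM at 5.71. Of 7 epithelial markers 6 were named, with EPCAM at 7.95 and the others between 3.33 and 5.51, and CDH1 was not analysed here. Summed as a mean level per array, the leukocyte list ran from 4.20 to 4.504 in controls and from 4.28 to 4.49 after the mimic, the fibroblast list from 4.46 to 4.60 and from 4.46 to 4.65, the epithelial list from 4.99 to 5.09 and from 4.93 to 5.10, and the HEK293 list from 8.02 to 8.16 and from 7.97 to 8.15. The 4 marker lists had median log2 fold changes of -0.017, 0.021, -0.038 and -0.043 in that order, and 1 of their 17 members, CLDN7, had an unadjusted p under 0.05. All 3 genes of interest were well within the measured range, with mean log2 values above those of 91.5% (POFUT1), 83.9% (DGCR8) and 90.5% (XRN1) of clusters. Levels of different genes cannot be set against each other on this array.

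XRN1, the 5′-to-3′ exonuclease, had the clearest pattern of the 3. Its log2 value in control replicates 1 to 6 was 8.41, 8.45, 8.43, 8.43, 8.45 and 8.42. In mimic replicates 1 to 6 it was 8.51, 8.58, 8.52, 8.54, 8.46 and 8.53. Every mimic array was above every control, by a margin as narrow as 8.458 in mimic replicate 5 against 8.452 in control replicate 5. Among all clusters 0.759% lay wholly above the controls in this way, and among the named genes 1.34% did. The means were 8.43 ± 0.02 in controls and 8.53 ± 0.04 after the mimic (SD, n = 6 each), a difference of 0.093 on the log2 scale, or 1.07-fold, with a 95% interval from 0.012 to 0.17. The exact permutation test of this single gene gave p = 0.00216, two-sided, the smallest that 924 assignments can give. XRN1 was chosen with earlier results of these data known, so its p-values are not independent evidence. The limma test gave an unadjusted p of 0.0268 and an adjusted p of 0.403, so XRN1 was not called. In RNA from whole cultures, more RNA per cell and more cells with that RNA cannot be told apart, here and in the results that follow.

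XRN1 varied very little from array to array: its residual SD was 0.030, a spread smaller than that of all but 0.791% of clusters at or above the median level, where the median was 0.13. limma draws an unusually small spread towards that of the other clusters, and gave a standard error of 0.037 in place of 0.017 from XRN1 alone. The control values in particular spanned 0.040 log2 units, or 1.03-fold, against 0.12 after the mimic. In the brightest 25% of clusters (mean log2 value at least 6.29), the limma adjusted p was 0.0775, still above the threshold.

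The complete separation of XRN1 depended on the scaling. After quantile normalization, which removes the difference in upper quartiles, the difference was 0.065 with a 95% interval from -0.0145 to 0.144, which includes 0 (limma unadjusted p = 0.101; exact permutation p = 0.00866), and 5 of 6 mimic arrays lay above all controls. Mimic replicate 5, at 8.46, then lay within the controls, which reached 8.47. With arrays centred on their medians the difference was 0.11 (exact permutation p = 0.00433), and again only mimic replicate 5, at 8.45, fell within the controls. Leaving out any 1 array kept the difference between 0.082 and 0.11, with limma adjusted p from 0.374 to 0.558. The unadjusted p was above 0.05 in 1 of these fits, that without mimic replicate 2 (0.0571).

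**Figure D1:**
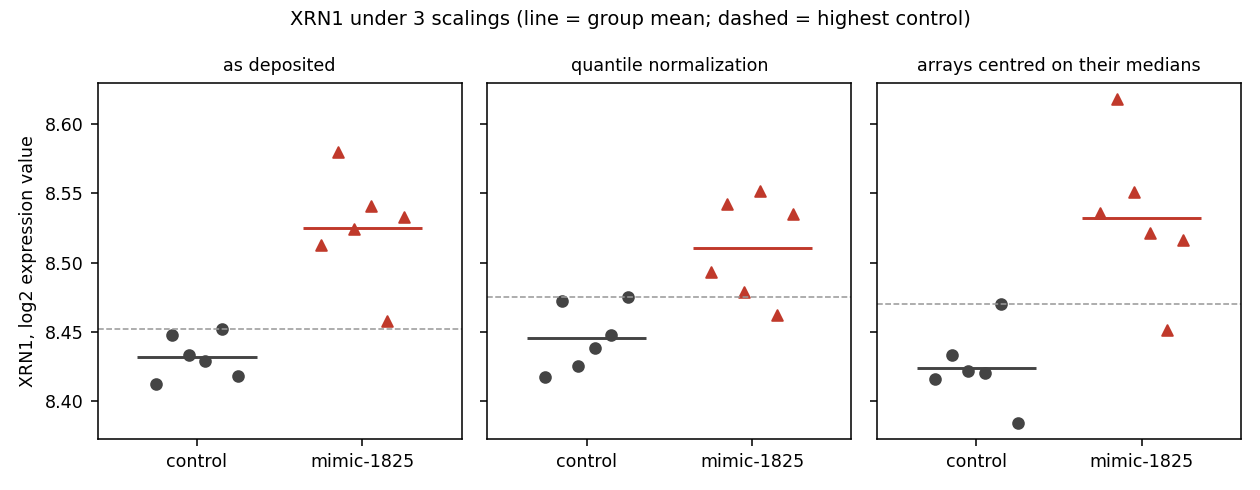
XRN1 log2 expression value (y axis) on each control (circles) and mimic-1825 (triangles) array, as deposited, after quantile normalization and after centring each array on its median. Points run from replicate 1 to 6, lines are group means and the dashed line is the highest control. All 6 mimic arrays lie above it as deposited and 5 of 6 in the other panels.

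DGCR8, the hairpin-binding subunit of the Microprocessor, had a higher mean after the mimic but overlapping groups. Control replicates 1 to 6 were at 7.37, 7.26, 7.52, 7.25, 7.38 and 7.14. Mimic replicates 1 to 6 were at 7.51, 7.59, 7.504, 7.29, 7.46 and 7.38. Control replicate 3 stood as high as the upper mimic arrays and mimic replicate 4 lay below control replicates 1, 3 and 5, so that only mimic replicate 2 exceeded every control. The means were 7.32 ± 0.13 and 7.46 ± 0.11 (SD, n = 6 each), with 5 of 6 mimic arrays above the control mean. The log2 fold change was 0.14 (1.10-fold), with a 95% interval from -0.015 to 0.29, a limma adjusted p of 0.514 and an exact permutation p of 0.0866. Single arrays moved it between 0.10 (without control replicate 6) and 0.18 (without control replicate 3).

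POFUT1, the host gene, had a slightly lower mean after the mimic, well inside its spread. In controls the values were 8.81, 8.69, 8.83, 8.53, 8.71 and 8.69 for replicates 1 to 6. After the mimic they were 8.69, 8.67, 8.72, 8.53, 8.67 and 8.62. Control replicates 1 and 3 were the highest of all arrays and replicate 4 was the lowest in both groups, and no mimic array lay outside the range of the controls. The means were 8.71 ± 0.11 and 8.65 ± 0.07 (SD, n = 6 each). The log2 fold change was -0.058 (0.961-fold; 95% interval -0.18 to 0.066; limma adjusted p = 0.759; exact permutation p = 0.284), and 5 of the 6 mimic values were under the mean of the controls. It ranged from -0.094 without control replicate 4 to -0.033 without mimic replicate 4, and was -0.034 without control replicate 3 and -0.037 without control replicate 1. In fold terms the interval of the values as deposited ran from 0.882 to 1.05.

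**Figure D2:**
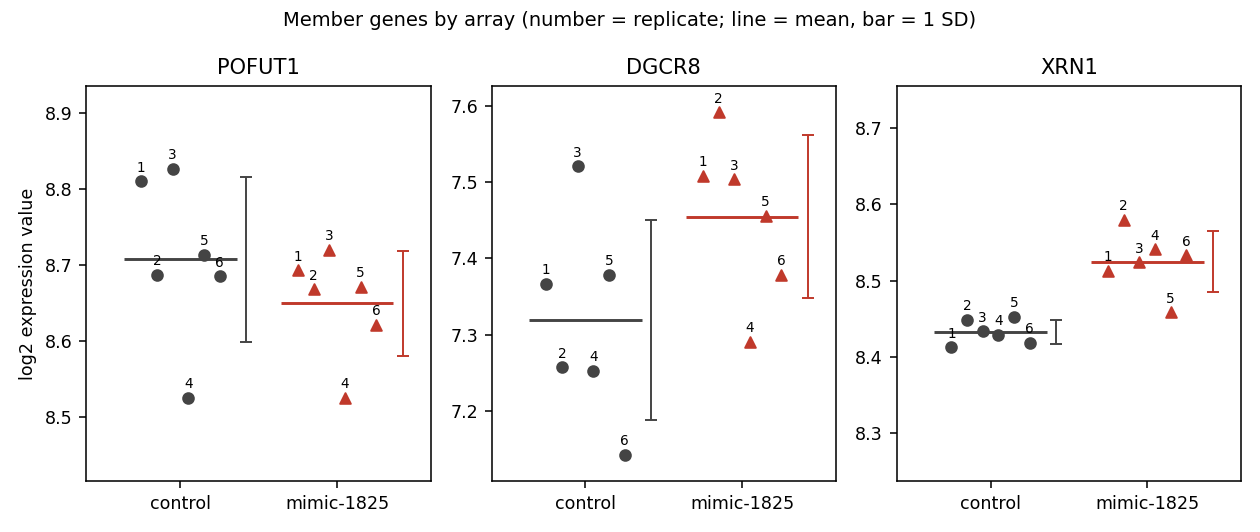
Log2 expression value (y axis, the same span in each panel) of POFUT1, DGCR8 and XRN1 on control (circles) and mimic-1825 (triangles) arrays, numbered by replicate, with group means (lines) and 1 SD (bars, n = 6). The XRN1 groups do not overlap, while those of DGCR8 and POFUT1 do.

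The changes of the genes were next compared with each other inside each array, where a shift of the whole array cancels. POFUT1 minus DGCR8 in log2 value was 1.44, 1.43, 1.31, 1.27, 1.34 and 1.54 in control replicates 1 to 6. It was 1.18, 1.08, 1.22, 1.24, 1.22 and 1.24 in mimic replicates 1 to 6. Every mimic array lay below every control, although neither gene alone separated the groups. The difference went from 1.39 ± 0.10 to 1.195 ± 0.06 (SD, n = 6 each), so that POFUT1 relative to DGCR8 was 0.875 times its control ratio after the mimic. The exact permutation p was 0.00216, the smallest possible, or 0.00866 adjusted over the 4 pairs compared. Subtracted in the same way, POFUT1 minus each of 10131 other named genes gave such a separation for 1.63% of them, and each other gene minus DGCR8 for 1.06%. Because the opposite signs of POFUT1 and DGCR8 were known when the pair was chosen, the p is not independent evidence. It was 0.00866 after quantile normalization and at most 0.026 without any 1 array, with differences between -0.22 and -0.16.

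The other pairs did not pass. POFUT1 minus XRN1 differed by -0.15 between the groups, with all 6 mimic arrays below the control mean (exact permutation p = 0.0281, adjusted 0.0563). Without control replicate 4, the control in which POFUT1 was lowest, it differed by -0.19 and passed (exact permutation, adjusted p = 0.00866). Leaving out any other single array did not make it pass (exact permutation, adjusted p up to 0.126). The members were chosen with earlier results of these data known, so these p-values are not independent evidence. DGCR8 minus XRN1 differed by 0.043 (exact permutation p = 0.548), with array differences from -1.28 to -0.91 in controls and from -1.25 to -0.99 after the mimic. A further planned pair, DGCR8 with its partner DROSHA, was not analysed here.

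Within the groups, POFUT1 and DGCR8 varied together. Over 12 arrays, after the group means were removed, Pearson's r was 0.712 (permutation p = 0.0178, adjusted over 3 pairs 0.0534) and Spearman's rho was 0.741 (permutation p = 0.0132, adjusted 0.0396). The r was 0.654 among the controls and 0.838 among the mimic arrays, and 0.759 without control replicate 4 and mimic replicate 4, the arrays farthest from the median of POFUT1. XRN1 went with neither: r was -0.168 with POFUT1 (permutation p = 0.543; rho -0.266, p = 0.423) and 0.155 with DGCR8 (permutation p = 0.636; rho 0.266, p = 0.422), with adjusted values of 0.636 for r and 0.423 for rho. Without the 2 farthest arrays these were -0.193 and 0.227. The link of POFUT1 with DGCR8 was shared with many genes: 320 of 10131 named genes had a higher r with POFUT1, and 489 with DGCR8.

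**Figure D3:**
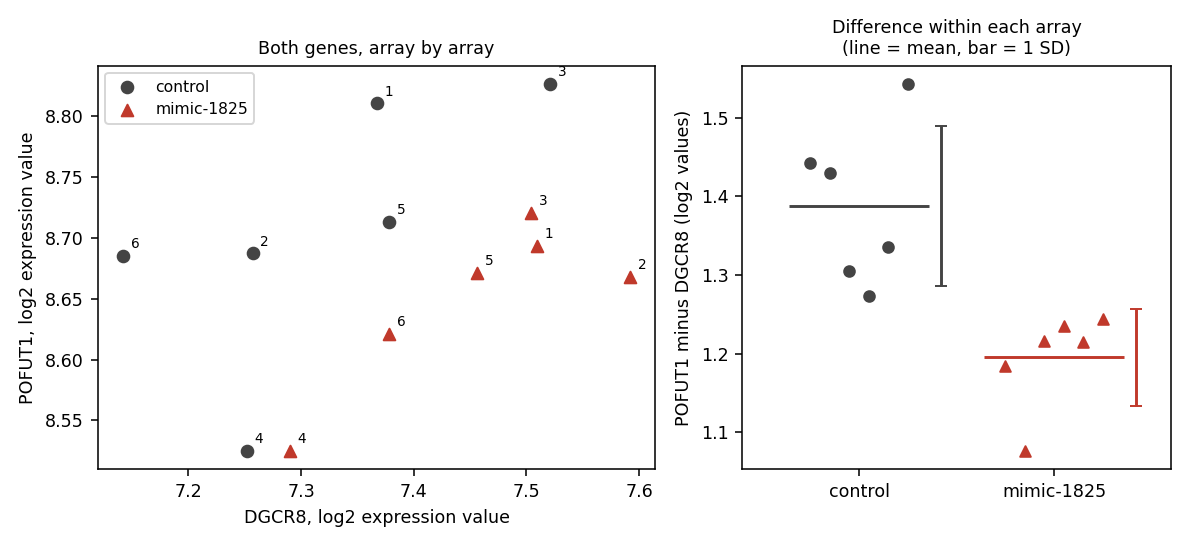
Left, POFUT1 against DGCR8 log2 expression value for each array, numbered by replicate; right, POFUT1 minus DGCR8 per array by group, with means (lines) and 1 SD (bars, n = 6). Circles are controls and triangles mimic-1825 arrays. POFUT1 and DGCR8 run together within each group, and the differences of 1.08 to 1.24 lie below those of 1.27 to 1.54 in controls.

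The genes whose array-to-array pattern was most like each of the 3 were named by Pearson's r of deviations from the group means over the 12 arrays, among 10131 other named genes at or above the median level. For POFUT1 these were HAND1, a transcription factor gene (r = 0.945), PHACTR4 (0.923), HDAC1, a histone deacetylase gene (0.92), SH3BGRL3 (0.91) and SRM, which encodes spermidine synthase (0.896). For DGCR8 they were AMMECR1L, ZBTB8A, GIT2, UBQLN2 and FNBP1, with r from 0.93 to 0.94. For XRN1, whose deviations were small, they were IGFBP6 (0.91), CCZ1 (0.886), CDS1 (0.874), the readthrough gene DTX2P1-UPK3BP1-PMS2P11 (0.85) and PRMT6, an arginine methyltransferase gene (0.845). All 12 values share the arrays and their scaling, so these are given as a description. None of the 15 passed limma, with adjusted p from 0.323 to 0.993.

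The promoter windows of POFUT1 and DGCR8 ran from 250 bases before to 50 after the annotated start (RefSeq GRCh38.p14). Capitals mark matches on either strand to GGGCGG (the GC box bound by SP-family factors) and to CCAAT.
POFUT1, chr20:32207630-32207929, plus strand: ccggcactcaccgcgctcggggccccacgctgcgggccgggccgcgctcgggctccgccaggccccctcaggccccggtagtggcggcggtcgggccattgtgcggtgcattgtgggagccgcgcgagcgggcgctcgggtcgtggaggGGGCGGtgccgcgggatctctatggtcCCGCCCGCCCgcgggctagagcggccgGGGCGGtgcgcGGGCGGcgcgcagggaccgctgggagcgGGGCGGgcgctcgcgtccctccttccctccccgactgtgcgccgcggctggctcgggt
DGCR8, chr22:20079991-20080290, plus strand: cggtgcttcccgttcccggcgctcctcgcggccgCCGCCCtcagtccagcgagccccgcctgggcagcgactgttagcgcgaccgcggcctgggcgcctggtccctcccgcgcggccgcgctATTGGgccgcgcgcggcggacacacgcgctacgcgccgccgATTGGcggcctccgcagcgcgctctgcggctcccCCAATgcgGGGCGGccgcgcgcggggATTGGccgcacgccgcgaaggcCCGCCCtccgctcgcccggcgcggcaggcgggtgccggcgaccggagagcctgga
The POFUT1 window held 6 GC boxes, of which 2 overlap each other, and 0 CCAAT matches. The DGCR8 window held 3 GC boxes and 4 CCAAT matches. Of 27305 promoter windows of this length, 44.6% held at least 1 GC box, 15.9% at least 3 and 2.91% at least 6, while 35.7% held at least 1 CCAAT and 1.06% at least 4. The XRN1 window held 2 GC boxes and 0 CCAAT matches. None of the 3 windows matched CCGGAAG (the ETS core, in 10.7% of windows) or CACGTG (an E-box, in 7.43%), searched on both strands. G and C made up 80.7% of the POFUT1 window, 80.3% of that of DGCR8 and 66.0% of that of XRN1, against a median of 58.3%. These matches describe the letters only. Any relation of the letters to the array-to-array variation of POFUT1 and DGCR8 was not tested.

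The members of each pathway were then set beside the 3 genes, from lists fixed for this purpose. Across the 6 lists of microRNA maturation, silencing and RNA decay, 52 of 96 genes were named on the array. Of these, 31 had higher and 21 lower means after the mimic, and the median log2 fold change was 0.018, against 0.0002 over all named genes. This split depended on the scaling: after quantile normalization 25 were higher and 27 lower (median -0.0086), and with arrays centred on their medians 36 were higher and 16 lower. With limma 0 passed, and 5 had an unadjusted p under 0.05, all higher, which is 9.62% of the 52 against 10.9% of all named genes in either direction (6.69% higher and 4.19% lower).

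Among microRNA maturation genes, 5 of 10 had higher means, and the median log2 fold change was 0.0094 that turned to -0.012 after quantile normalization. DDX5, the DEAD-box helicase that assists the Microprocessor, had the highest log2 fold change. It went from 11.41 ± 0.03 to 11.56 ± 0.06 (log2 fold change 0.15, or 0.13 after quantile normalization, n = 6 each; limma adjusted p = 0.242). As deposited, its lowest mimic array was above its highest control, as in 1.34% of all named genes. Its relative DDX17 had 0.023. SRRT, which links the cap-binding complex to primary microRNA transcripts, had 0.055. XPO5, the hairpin exporter, had -0.0043 (95% interval -0.085 to 0.076), which turned positive with arrays centred on their medians. The lowest was TARBP2, a DICER1 partner, at -0.078 (limma adjusted p = 0.641). DROSHA, DICER1 and AGO2 were not analysed here.

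Silencing complex genes had 2 of 6 higher means and a median of -0.021, and ran from -0.048 for TNRC6B to 0.074 for TNRC6A, both scaffold proteins of the Argonaute complex. Deadenylation genes, which remove poly(A) tails, had 4 of 5 higher with a median of 0.015 (2 of 5 and -0.0087 after quantile normalization), from -0.036 for PAN2 to 0.068 for PARN. In neither list did any member have an unadjusted p under 0.05. CNOT1 was not analysed here.

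In the decapping and 5′-to-3′ decay list, 8 of 11 genes had higher means (median 0.023), against 6 of 11 after quantile normalization (median 0.012), and XRN1 had the highest log2 fold change. XRN2, its nuclear counterpart, came next: it went from 9.08 ± 0.06 to 9.17 ± 0.06 (log2 fold change 0.090; 95% interval -0.0064 to 0.19; limma adjusted p = 0.498). DCP2, the decapping enzyme that produces the substrate of XRN1, had 0.076. EDC4, the scaffold between them, had 0.070. DDX6, the helicase of the decapping complex, had 0.023. EDC3, an enhancer of decapping, was lower at -0.080 (limma adjusted p = 0.472), and PNRC2 had the lowest value, -0.11, at a mean of 3.56, below every array median. XRN1 was the only member of the 11 with an unadjusted p under 0.05 and the only one whose groups did not overlap, both on the values as deposited. After quantile normalization its unadjusted p was 0.101 and its groups overlapped in 1 mimic array.

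The exosome degrades RNA from the other end. Of its 16 named genes 10 had higher means, with a median of 0.044 (9 of 16 and 0.022 after quantile normalization). Of the 16, 3 had an unadjusted p under 0.05, all higher, where 6.69% of all named genes did so. EXOSC9, a core subunit, had the highest log2 fold change at 0.15 (limma adjusted p = 0.411). SKIC3, of the cytoplasmic Ski complex that feeds the exosome, had 0.12 (limma adjusted p = 0.33), or 0.094 after quantile normalization. As deposited, its lowest mimic array was also above its highest control, as in 1.34% of all named genes. The separations of DDX5 and SKIC3 were not tested under the other scalings. DIS3, the catalytic nuclease, had 0.090, and SKIC8 had the lowest value at -0.057. Nonsense-mediated decay genes were higher in 2 of 4 cases, with median 0.0024 (1 of 4 and -0.026 after quantile normalization), from 0.11 for UPF2 to -0.066 for the helicase gene UPF1, with 0 members at an unadjusted p under 0.05.

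**Figure D4:**
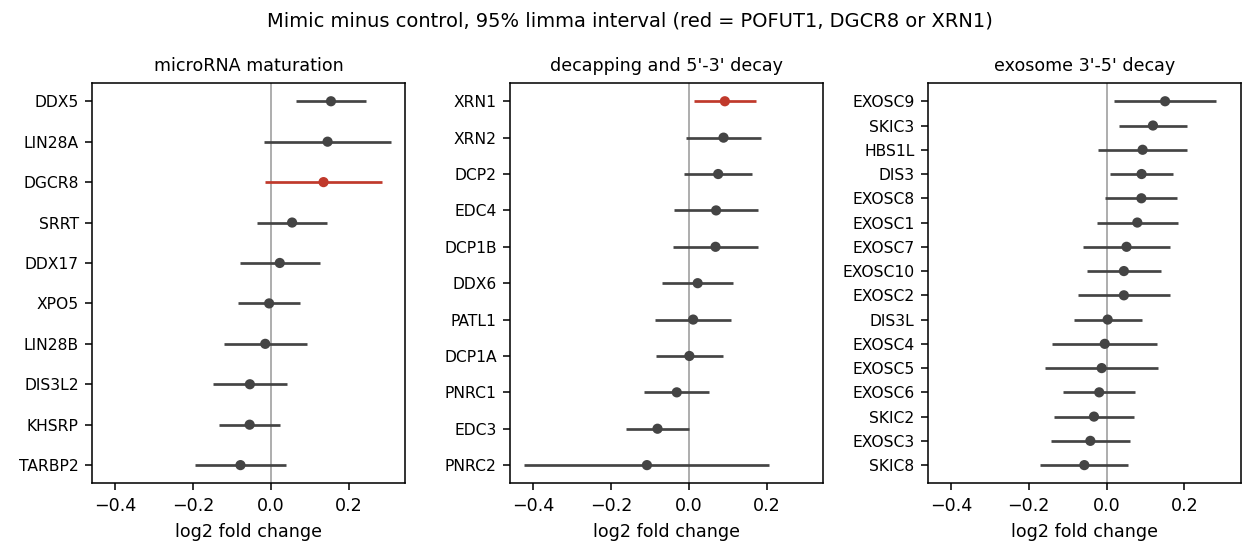
Log2 fold change, mimic minus control (x axis), with 95% limma intervals, of the named genes of the microRNA maturation, decapping and exosome lists; DGCR8 and XRN1 are in red. XRN1 tops its list at 0.093 and DGCR8, at 0.14, stands behind DDX5 and LIN28A in its own, and no gene passed the adjusted threshold. LIN28A had a mean of 3.82, below every array median.

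The partners of POFUT1 as an enzyme were examined in the same way. Across its 5 lists 50 of 59 genes were named, 25 with higher and 25 with lower means (median -0.0036). After quantile normalization 19 were higher and 31 lower, and with arrays centred on their medians 26 and 24 (median 0.012). With limma 0 passed, and 4 had an unadjusted p under 0.05, all higher, which is 8.0% of the 50 against the same 10.9% of all named genes (6.69% higher). Among genes for O-glycosylation of EGF-like and thrombospondin repeats, 6 of 12 had higher means (median 0.035, or 0.0077 after quantile normalization). POFUT2, which adds O-fucose to thrombospondin repeats, had the highest log2 fold change at 0.22, with wide spread (5.31 ± 0.23 and 5.52 ± 0.25, n = 6 each; limma adjusted p = 0.578). POGLUT1, which adds O-glucose to the same EGF-like repeats that POFUT1 modifies, went from 6.63 ± 0.09 to 6.84 ± 0.10 (log2 fold change 0.20; limma adjusted p = 0.274). EOGT, which adds O-GlcNAc to them, had 0.11 (limma adjusted p = 0.429). MFNG, one of the Fringe enzymes that extend the fucose placed by POFUT1, had the lowest at -0.14, at a mean of 4.82 near the array medians.

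GDP-fucose, the donor of POFUT1, is made by genes of which 6 of 11 were named. Of these 2 had higher means (median -0.027), from -0.061 for GFUS to 0.082 for FCSK, and 0 had an unadjusted p under 0.05.

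The Notch receptors and their ligands, the substrates of POFUT1, had lower means in 8 of 9 cases, where 7427 of all 14884 named genes did. Their median of -0.071 was the lowest of the 17 lists. The differences were small: 0 members had an unadjusted p under 0.05. NOTCH1 had -0.084 and NOTCH2 had -0.071. NOTCH3 was the exception at 0.085. Of the ligands, JAG1 had -0.058 and JAG2 had the lowest value at -0.090 (limma adjusted p = 0.555). The median was -0.079 after quantile normalization and -0.056 with arrays centred on their medians.

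Notch processing and transcription genes had 10 of 14 higher means (median 0.026), against 8 of 14 after quantile normalization (median 0.020). SNW1, a coactivator gene of the Notch transcription complex, was highest at 0.14 (limma adjusted p = 0.337) and KDM5A lowest at -0.047. ADAM17, a protease able to cleave the receptor, was the other member at an unadjusted p under 0.05, with 0.13. Notch target genes were higher in 6 of 9 cases, with median 0.003 (3 of 9 and -0.014 after quantile normalization), from -0.045 for HES4 to 0.13 for HES5, and 0 had an unadjusted p under 0.05. HES1 was not analysed here.

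The genes around POFUT1 on chromosome 20 give its genomic setting. PLAGL2, a zinc finger transcription factor gene on the minus strand, starts 137 bases from POFUT1, and 236 bases of their promoter windows are shared. In controls PLAGL2 was at 9.30, 9.03, 9.34, 9.20, 9.15 and 9.02 for replicates 1 to 6. After the mimic it was at 9.14, 9.22, 9.19, 9.23, 9.13 and 9.25. Control replicates 1 and 3 were the highest for both genes, but control replicate 4, the lowest for POFUT1, was not low for PLAGL2. Its log2 fold change was 0.020 (limma adjusted p = 0.939). POFUT1 minus PLAGL2 differed by -0.078 between the groups (exact permutation p = 0.273, adjusted 0.364). Over the 12 arrays the deviations of PLAGL2 correlated with those of POFUT1 at 0.266, a value given as a description, below that of 3503 other genes.

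Of 8 named genes in the POFUT1 neighbourhood, 3 had higher and 5 lower means (median -0.024), from -0.074 for COMMD7 to 0.15 for DNMT3B, a DNA methyltransferase gene. KIF3B, a kinesin-2 motor gene, had 0.046. In the DGCR8 neighbourhood 3 of 6 were higher (median 0.023), with DGCR8 itself highest at 0.14 and TRMT2A lowest at -0.086. No member of either neighbourhood had an unadjusted p under 0.05.

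**Figure D5:**
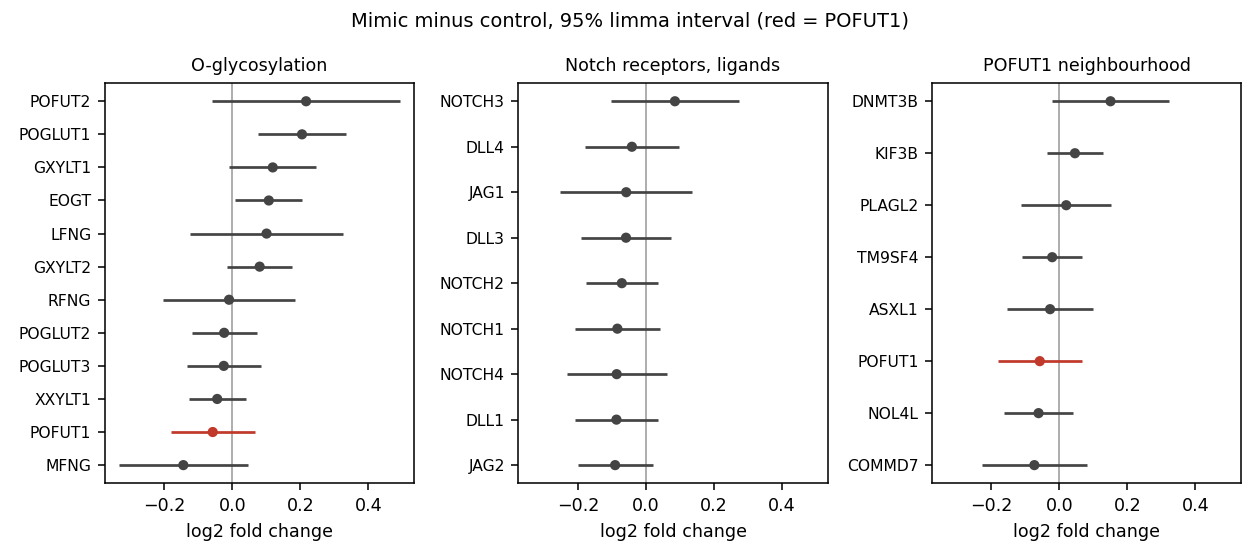
Log2 fold change, mimic minus control (x axis), with 95% limma intervals, of the named genes of the O-glycosylation, Notch receptor and ligand, and POFUT1 neighbourhood lists, with POFUT1 in red. In the middle panel 8 of 9 genes lie below 0, and the interval of each of the 9 includes 0.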

How the data were processed

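Human Gene 2.0 ST arrays from Affymetrix were made of 6 control and 6 mimic samples. The deposited table holds log2 expression values, which the authors computed in Affymetrix Expression Console (submitters' processing notes; version and settings not given in the sources used here). Their log2 scale was read from the range, as they span 1.62 to 14.4. The values were used as deposited. Rows were named through the platform annotation (16098 of 53617 with 1 symbol, 0 with several, 37519 unnamed here), with symbols updated through RefSeq GRCh38.p14 (0 changed); the highest-mean cluster stood for a gene. Groups were compared with limma 3.58.1 (R 4.3.3; lmFit, then eBayes without trend or block) on all clusters, two-sided, with Benjamini-Hochberg adjustment at 0.05, tested on simulated data. Single values and within-array differences were compared by exact permutation over 924 assignments; correlations used 100000 permutations within groups. Probe intensities were not used here, so background is unknown, and the number of arrays limits the precision.

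Named were the 3 genes, partners fixed by role, the highest and lowest member of each of 17 lists, and the 5 genes most alike. Members with an unadjusted p under 0.05, and EDC3, DDX17, SRRT and LIN28A, were named after their values were seen. The members and lists were chosen with earlier results of these data known. Same-numbered arrays of the 2 groups correlated between -0.113 and 0.084 in their deviations, so numbers were not taken as pairs.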

Additional observations from a re-analysis of the deposited data

Results flagged for a closer look

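In 42 groups of 6 arrays (17 genes and 4 within-array differences, each in both groups), 3 had an array standing apart from the rest, where chance gives about 1 in 20. For POGLUT1, mimic replicate 5 was the lowest mimic array at 6.63, against 6.83 to 6.93 in the other 5. For KIF3B, control replicate 6 was the lowest control at 8.11, against 8.18 to 8.21. For POFUT1 minus DGCR8, mimic replicate 2 was the lowest at 1.08, against 1.18 to 1.24; those 5 also lay below every control. No group of POFUT1, DGCR8 or XRN1 values alone had such an array.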

How the results depend on the processing

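POFUT1, DGCR8 and XRN1 each kept their direction and stayed above the threshold in all 20 alternatives run (scalings, priors, filters, array weights, a replicate block and single arrays left out), with limma adjusted p from 0.55 to 0.88, 0.252 to 0.679 and 0.0775 to 0.567. With a replicate block they were 0.70, 0.528 and 0.545, and the interval of XRN1 included 0 (-0.011 to 0.20). No gene had a further cluster to try. The count of 6 called clusters became 0 with a replicate block and with 1 cluster per named gene, 39 with a trend and robust prior, 13 among clusters at or above the median and 242 in the brightest 25%, and ranged from 0 to 6 without single arrays; the cause was not tested. POFUT1 minus XRN1 ranged from -0.19 to -0.12 without single arrays and passed only without control replicate 4. No other pair changed its call, and no list median moved by more than the spread between arrays, although those of 4 lists changed sign, as given beside them. Quantile normalization moved the median of all clusters by 0.0029 and centring by 0.015.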
